A study of Mus musculus with 6 samples.

Results

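The iron handling genes described here are 10 genes of 26264 in a table of raw read counts, chosen by symbol for their roles in cellular iron metabolism: the carrier transferrin (Trf) and its receptor (Tfrc), the divalent metal transporter Slc11a2, the ferritin chains Fth1 and Ftl1, the ferroxidases Cp and Heph, the exporter Slc40a1 and the iron regulatory proteins Aco1 and Ireb2. The counts come from 6 bulk RNA libraries of neural stem cells cultured from adult mouse spinal cord (C57BL6J background) with EGF and FGF2, sorted by fluorescence. The 3 GFP-positive libraries carry the genotype label PDGFRaGFP/+ and the 3 GFP-negative libraries the label PDGFRaGFP/-, with no other allele, agent or age given. The study asks how such cultures produce oligodendrocyte precursor cells and oligodendrocytes. GFP reports Pdgfra, the receptor for platelet-derived growth factor that marks oligodendrocyte precursors. The labels do not say whether the libraries came from separate animals or cultures, so the p-values reflect only how far these libraries spread, in part perhaps technically.

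Iron enters most cells bound to transferrin, which the transferrin receptor carries into endosomes, where reduced iron crosses the membrane through divalent metal transporters. Iron that is not used is stored in ferritin, a shell of heavy chains that oxidise iron and light chains that help to mineralise it, or leaves through ferroportin, the product of Slc40a1, with the help of a ferroxidase. Oligodendrocytes are known as the iron-rich cells of the brain and as a main local source of transferrin, and their precursors need iron to mature. Iron regulatory proteins bind a hairpin, the iron-responsive element, in certain mRNAs when iron is scarce: they block translation of ferritin and ferroportin from the 5′ UTR and stabilise the receptor mRNA from the 3′ UTR.

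Candidate hairpins of the members are shown because the ferritin, ferroportin and receptor mRNAs are the known targets of those proteins, so that their RNA and protein need not move together. A search of the GENCODE M21 transcripts (GRCm38) for the loop CAGTGN on the transcript strand, with a C 6 bases before it and each of the 5 bases on its left able to pair with those on its right (G with T included), found the 5′ UTR of Fth1, Ftl1 and Slc40a1 and the 3′ UTR of Tfrc. That motif was in the 5′ UTR of 0.148% of the 12807 tested genes with such a UTR and in the 3′ UTR of 0.748% of 12973, with UTRs of any length. No match to this rule was found in the UTRs of the other 6 members. The rule allowed no other loop and no unpaired base within the 5 pairs. Hairpins that depart from it would be missed, so a member without a match may still hold one, and the Tfrc sites may not be all. The files use another build (mm39), so a site is placed by its chromosome and by the base of its GENCODE transcript where the motif starts: Fth1 on chromosome 19 at base 93 of 929, Ftl1 on chromosome 7 at base 84 of 968, Slc40a1 on chromosome 1 at base 96 of 3370, and Tfrc on chromosome 16 at bases 3321, 3700, 3765 and 3812 of 4890. Each site is printed 5′ to 3′ with the 6 bases of the loop in capitals; the Fth1 and Ftl1 sites are much alike around the loop, and the 4 Tfrc sites resemble each other.
Fth1, 5′ UTR: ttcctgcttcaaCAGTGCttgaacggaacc
Ftl1, 5′ UTR: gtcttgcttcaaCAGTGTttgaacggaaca
Slc40a1, 5′ UTR: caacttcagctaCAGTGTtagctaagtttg
Tfrc, 3′ UTR, site 1: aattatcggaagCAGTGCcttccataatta
Tfrc, 3′ UTR, site 2: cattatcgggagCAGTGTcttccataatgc
Tfrc, 3′ UTR, site 3: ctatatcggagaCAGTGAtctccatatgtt
Tfrc, 3′ UTR, site 4: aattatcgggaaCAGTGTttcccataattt

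Total counts per library lay between 36846570 and 45207335 in GFP-positive cells and between 31067850 and 32869705 in GFP-negative cells. Pdgfra stood at 229 ± 21.3 CPM, the count per 1000000 reads (SD, n = 3), in GFP-positive libraries, against 13.7 ± 5.62 CPM in GFP-negative cells (SD, n = 3), in the direction of the sort labels. The fractions differed in 8058 of 14554 tested genes (55.4%), 3804 higher (26.1%) and 4254 lower (29.2%) in GFP-positive cells, by edgeR's quasi-likelihood test at an adjusted p below 0.05. Without replicate 3 in both groups, 2454 were higher. All 10 listed precursor markers were higher and all 11 listed astrocyte markers lower in GFP-positive cells. The summed astrocyte level was 511 to 638 CPM in GFP-positive libraries, against 3762 to 4671 CPM in GFP-negative libraries. Of 6 neuron markers the 3 tested, Rbfox3, Snap25 and Syt1, were higher in GFP-positive cells, Slc17a6 had 0 reads, and the sum was 32.4 to 39.8 CPM in GFP-positive libraries, against 7.31 to 13.4 CPM in GFP-negative libraries. The part of neuron markers in the differences between the fractions was not tested. Of the 6 listed neural stem cell markers, 5 were lower in GFP-positive cells and Msi1 was not called. They summed to 1712 to 1927 CPM in GFP-positive libraries, against 5353 to 6090 CPM in GFP-negative libraries. Markers of the labelled cell type were thus read in both fractions, at a lower summed level in GFP-positive cells.

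Of the 10 members, 9 had enough counts to be tested and Slc40a1 did not. In GFP-positive cells 6 members were lower (Trf, Heph, Fth1, Cp, Aco1 and Ftl1), 1 was higher (Slc11a2), and Tfrc and Ireb2 were not called. The background shares were 29.2% of all tested genes lower and 26.1% higher, and 55.4% called in either direction, and with 9 genes nothing particular to the members is read from these counts. The median log2 fold change of the tested members was -0.31, against -0.0058 for all tested genes, and the median size without sign was 0.31, against 0.36. CPM values did not overlap between the fractions for 7 members, as for 64.2% of all tested genes. The members' differences ran over a wide range of sizes, from nearly none for Tfrc to more than 10-fold for Trf and Heph.

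**Figure D1:**
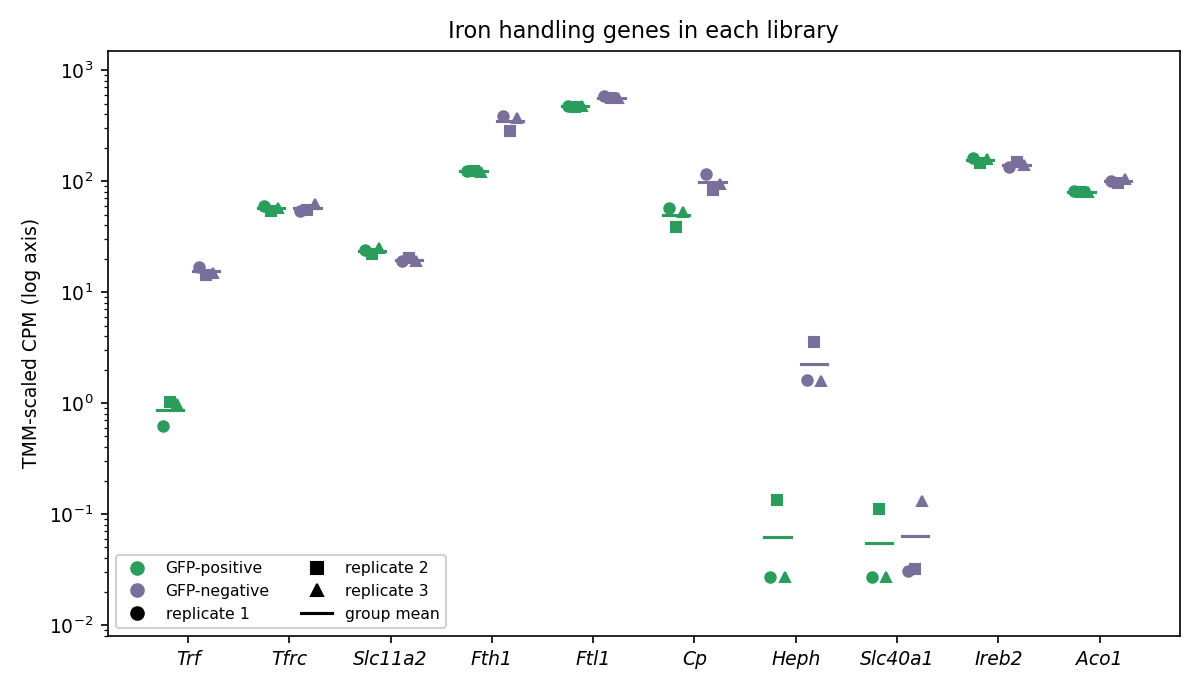
CPM of each member in each library on a log axis, GFP-positive left of GFP-negative, with the replicate number as the shape and the group mean as a bar. Trf and Heph lie far lower in GFP-positive cells, Fth1 and Cp lower, and the Tfrc points of the fractions overlap near 57 CPM.

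Of the 3 members that act in uptake, transferrin had the largest fold change and its receptor was not called. Trf (Entrez 22041), the secreted iron carrier, stood at 0.627, 1.02 and 0.979 CPM in GFP-positive replicates 1, 2 and 3, against 16.8, 14.3 and 14.97 CPM in GFP-negative replicates 1, 2 and 3. Each GFP-positive library lay far below each GFP-negative library. The log2 fold change was -4.12 (edgeR, SE 0.19, adjusted p = 2.96e-06), a level 17.4-fold lower in GFP-positive cells, and its size exceeded that of 99.4% of all tested genes. It rests on 105 reads in GFP-positive libraries, against 1465 in GFP-negative libraries. In these bulk samples, fewer cells that express a gene and less RNA per cell cannot be told apart.

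Trf is widely used as a marker of mature oligodendrocytes, and the other markers of that stage were read beside it. Of 11 such genes (Trf not among them), Mog, Mag, Mobp, Mal, Opalin and Ermn were below 1 CPM in all 6 libraries. Of the 5 tested, Mbp, Cnp and Cldn11 were higher and Aspa lower in GFP-positive cells. The summed level was 211 to 232 CPM in GFP-positive libraries, against 130 to 181 CPM in GFP-negative libraries. Cnp supplied most of it, at 187 ± 16.9 CPM in GFP-positive libraries, against 139 ± 27.9 CPM in GFP-negative libraries (SD, n = 3). Choroid plexus, another source of transferrin, was read from Ttr, Folr1 and Kl, which were below 1 CPM in every library. Of the 7 listed choroid plexus and ependymal markers the 1 tested, Foxj1, a factor of ciliated cells, was lower in GFP-positive cells, at 4.92 ± 0.83 CPM in GFP-positive libraries, against 13.3 ± 2.78 CPM in GFP-negative libraries (SD, n = 3), and supplied nearly all of their summed level of 4.44 to 5.96 CPM in GFP-positive libraries, against 10.5 to 16.1 CPM in GFP-negative libraries. Foxj1, the astrocyte markers and the neural stem cell marker sum given above moved in the same direction as Trf. Their part in the Trf difference was not tested.

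Tfrc (Entrez 22042), the transferrin receptor, stood at 59.6, 53.6 and 57.0 CPM in GFP-positive libraries, against 53.6, 55.0 and 61.9 CPM in GFP-negative replicates 1, 2 and 3. The libraries of the fractions were interleaved. The log2 fold change was -0.0018 (edgeR, SE 0.074, adjusted p = 0.986), with a 95% interval from -0.17 to 0.17. Its sign turned with RLE scaling (0.0049), and in other settings, so it has no direction, and differences of the size the interval holds could not be detected here.

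Slc11a2 (Entrez 18174), the transporter that moves ferrous iron out of the endosome, was the higher member. It stood at 24.0, 22.3 and 24.9 CPM in GFP-positive libraries, against 19.0, 20.4 and 19.1 CPM in GFP-negative replicates 1, 2 and 3. The fractions did not overlap, but GFP-positive replicate 2 and GFP-negative replicate 2 were close. This gave a log2 fold change of 0.28 (edgeR, SE 0.081, adjusted p = 0.0172). The call was lost without GFP-positive replicate 3 (adjusted p = 0.0702), without replicate 1 in both groups (0.116) and without replicate 3 in both groups (0.140).

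The ferritin chains were both lower in GFP-positive cells, Fth1 by the larger fold change. Fth1 (Entrez 14319), the heavy chain with ferroxidase activity, stood at 124, 124 and 121 CPM in GFP-positive libraries, against 386, 282 and 371 CPM in GFP-negative replicates 1, 2 and 3. The GFP-positive libraries were nearly level, with a coefficient of variation of 1.67%, against 16.2% among GFP-negative libraries, where replicate 2 was lowest. The log2 fold change was -1.49 (edgeR, SE 0.11, adjusted p = 2.15e-05), a level 2.82-fold lower in GFP-positive cells. Ftl1 (Entrez 14325), the light chain, stood at 481, 471 and 472 CPM in GFP-positive libraries, against 584, 557 and 562 CPM in GFP-negative replicates 1, 2 and 3. All GFP-positive libraries were lower, by a small margin. Its log2 fold change was -0.26 (edgeR, SE 0.050, adjusted p = 0.00288), and the call was lost without replicate 3 in both groups (adjusted p = 0.0512).

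The ratio of the ferritin chains within a library needs no scaling between libraries. Per Ftl1 count there were 0.259, 0.262 and 0.255 Fth1 counts in GFP-positive libraries, against 0.661, 0.506 and 0.659 in GFP-negative replicates 1, 2 and 3. The log2 ratio differed by -1.22 between the fractions (-1.95 ± 0.020 in GFP-positive, -0.73 ± 0.22 in GFP-negative; SD, n = 3), with no overlap and an exact two-sided permutation p = 0.1, the smallest that 3 against 3 libraries allows. The Fth1 share of ferritin transcripts was thus lower in all 3 GFP-positive libraries. Ftl1 has 9 annotated genes with a stretch of at least 100 bases that is at least 97% identical, against 0 for Fth1 by the same rule. How reads that map to several places were counted is not given in the sources used here, so the absolute level of Ftl1 is uncertain.

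Fth1 and Tfrc are the classical targets of the regulatory proteins on opposite sides, and their ratio was read in the same way. There were 0.479, 0.434 and 0.473 Tfrc counts per Fth1 count in GFP-positive libraries, against 0.139, 0.195 and 0.167 in GFP-negative replicates 1, 2 and 3. The log2 ratio was higher by 1.48 in GFP-positive cells (-1.12 ± 0.077 in GFP-positive, -2.60 ± 0.25 in GFP-negative; SD, n = 3), a 2.79-fold difference with no overlap (exact two-sided permutation p = 0.1, the smallest possible). Of the pair, Fth1 was called and Tfrc was not. RNA counts give no measure of ferritin translation.

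**Figure D2:**
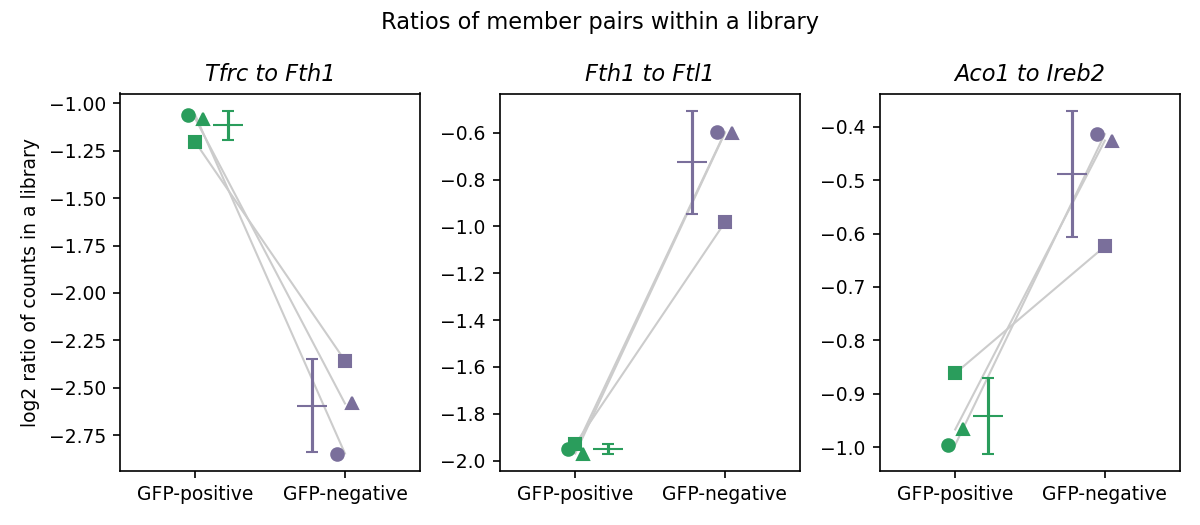
Log2 ratio of counts of Tfrc to Fth1, Fth1 to Ftl1 and Aco1 to Ireb2 in each library, GFP-positive left of GFP-negative, with circles, squares and triangles for replicates 1, 2 and 3, lines joining libraries of the same number, and bars for the mean and SD (n = 3). In each panel the fractions do not overlap; the Fth1 to Ftl1 ratio spreads least, between -1.97 and -1.93, in GFP-positive cells.

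The export genes were lower in GFP-positive cells or hardly detected in either fraction. Cp (Entrez 12870), ceruloplasmin, a copper ferroxidase that astrocytes carry on their surface, stood at 57.0, 38.5 and 52.5 CPM in GFP-positive libraries, against 115, 84.2 and 93.8 CPM in GFP-negative replicates 1, 2 and 3. The fractions did not overlap, and replicate 2 was lowest in each. This gave a log2 fold change of -0.99 (edgeR, SE 0.16, adjusted p = 0.00117), a 1.98-fold lower level in GFP-positive cells. Exons of Cp overlap those of Hps3 on the opposite strand, and the strand setting of the counting is not given in the sources used here. Hps3 went the other way, with a log2 fold change of 0.24 (edgeR adjusted p = 0.0366). The astrocyte and neural stem cell marker sums also moved with Cp, and their part in this difference was not tested.

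Heph (Entrez 15203), hephaestin, a membrane ferroxidase related to ceruloplasmin, had 1, 6 and 1 reads in GFP-positive libraries, against 53, 111 and 49 reads in GFP-negative replicates 1, 2 and 3. These are 0.027, 0.132 and 0.027 CPM in GFP-positive libraries, against 1.61, 3.54 and 1.59 CPM in GFP-negative cells. Replicate 2 was highest in both fractions, and no GFP-positive library came near a GFP-negative one. The fitted log2 fold change was -5.01 (edgeR, SE 0.61, adjusted p = 2.57e-04), and it was -6.18 without GFP-positive replicate 2, -5.69 without replicate 2 in both groups, and -4.52 without GFP-negative replicate 2. From the summed reads (8 in GFP-positive, 213 in GFP-negative), the level was 33.2-fold lower in GFP-positive cells, with a 95% exact interval of 16.6 to 77.9 that covers counting error only.

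Slc40a1 (Entrez 53945), ferroportin, the known cellular iron exporter, had 1, 5 and 1 reads in GFP-positive libraries, against 1, 1 and 4 reads in GFP-negative replicates 1, 2 and 3. Its CPM was at most 0.1104 in GFP-positive libraries, against 0.130 in GFP-negative libraries. With 7 reads in GFP-positive libraries, against 6 in GFP-negative cells, the ratio of GFP-negative to GFP-positive was 1.07 with a 95% exact interval from 0.297 to 3.72, so a difference was not detectable at this depth. Markers of microglia and macrophages, cells rich in ferroportin, were nearly absent from the counts. C1qa, C1qb, C1qc and Trem2 had 0 reads in all libraries. The 11 listed markers summed to 0.490 to 1.20 CPM in GFP-positive libraries, against 0.607 to 2.65 CPM in GFP-negative libraries. Whether this bears on the low Slc40a1 level was not tested. The 4 listed globin genes, Hba-a1, Hba-a2, Hbb-bs and Hbb-bt, also had 0 reads.

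The transcripts of the iron regulatory proteins differed little. Aco1 (Entrez 11428), which acts as a cytosolic aconitase when it holds an iron-sulfur cluster and binds RNA when it does not, stood at 81.5, 80.0 and 80.6 CPM in GFP-positive libraries, against 101, 96.2 and 104 CPM in GFP-negative replicates 1, 2 and 3. All GFP-positive libraries were lower, with a log2 fold change of -0.31 (edgeR, SE 0.051, adjusted p = 0.00115). Ireb2 (Entrez 64602), whose protein is degraded when iron is plentiful, stood at 163, 145 and 158 CPM in GFP-positive libraries, against 135, 148 and 139 CPM in GFP-negative replicates 1, 2 and 3. The fractions overlapped through replicate 2, the sole number in which the GFP-positive library was lower. The log2 fold change was 0.14 (edgeR, SE 0.062, adjusted p = 0.0857; 95% interval -0.002 to 0.28). Ireb2 passed the threshold when GFP-positive replicate 2 was left out (0.19, adjusted p = 0.0427), when GFP-negative replicate 2 was (0.18, 0.0318), and when both were (0.23, 0.00769).

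Within a library there were 0.501, 0.550 and 0.512 Aco1 counts per Ireb2 count in GFP-positive libraries, against 0.751, 0.649 and 0.744 in GFP-negative replicates 1, 2 and 3. The log2 ratio differed by -0.45 (-0.94 ± 0.071 in GFP-positive, -0.49 ± 0.12 in GFP-negative; SD, n = 3; exact two-sided permutation p = 0.1, the smallest possible). The balance of the pair thus lay further towards Ireb2 in GFP-positive cells, in all 3 libraries.

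**Figure D3:**
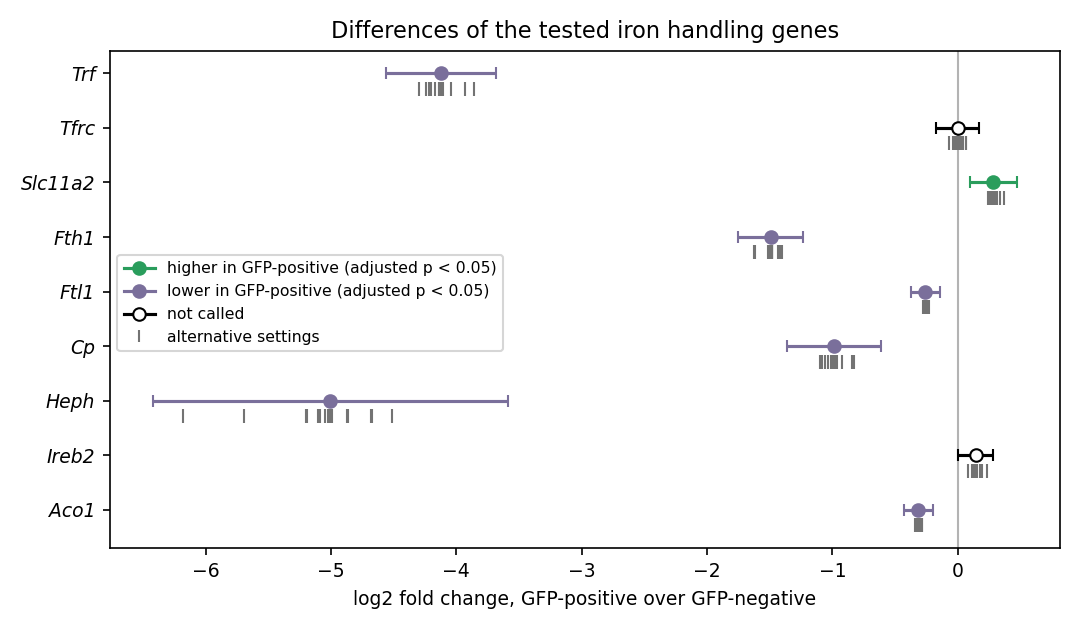
Log2 fold change, GFP-positive over GFP-negative, of the 9 tested members with 95% intervals, and grey ticks for the values under the alternative settings. Trf and Heph lie beyond -3.5, Fth1 near -1.49 and Cp near -0.99, and the other 5 within 0.4 of 0; the ticks of Tfrc fall on both sides of 0.

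Levels of different genes were compared per kilobase of exon (GENCODE M21, all exons of a gene joined). In GFP-positive cells the order of mean CPM per kilobase was Ftl1 (490), Fth1 (78.9), Ireb2 (26.9), Aco1 (21.1), Tfrc (10.9), Cp (8.51), Slc11a2 (4.14), Trf (0.318), and then Slc40a1 and Heph, whose libraries overlapped near 0. In GFP-negative cells it was Ftl1 (586), Fth1 (222), Aco1 (26.2), Ireb2 (24.4), Cp (16.8), Tfrc (10.9), Trf (5.59), Slc11a2 (3.40), Heph (0.375) and Slc40a1 (0.019), with overlap between the libraries of Aco1 and Ireb2. Ferritin RNA thus led in both fractions, while Ireb2 and Aco1, Tfrc and Cp, and Slc11a2 and Trf stood in opposite order in the fractions. The Ireb2 and Aco1 levels overlapped in GFP-negative cells, so that exchange does not hold up against the spread there. The joined exons of Fth1 hold 1558 bases, more than the 929 of its transcript that carries the hairpin, so the Fth1 level per kilobase is an underestimate if that transcript predominates.

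The genes whose log2 CPM over the 6 libraries was most like that of Trf, among 9993 genes whose mean log2 CPM reached 3, were Ctnnb1 (Pearson r = 0.9998), Dpf3 (0.9994) and Clic1 (0.9986). These r values describe 6 libraries that fall into 2 sorted groups, and 1447 genes had an r above 0.95 with Trf. They measure the shape over the libraries and not the size of the difference. The log2 fold change was -0.35 for Ctnnb1, -1.35 for Dpf3 and -1.34 for Clic1, against -4.12 for Trf. For Tfrc the closest of 9992 genes were Slc38a6 (0.978), Eif2ak1 (0.959) and Mterf3 (0.941), and 2 genes had an r above 0.95. None of these genes was a member, but not every member could be listed. Heph for both genes, and Trf for Tfrc, lay below the limit on mean log2 CPM, and Slc40a1 was not tested.

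The rest of iron metabolism was read from 8 lists of 96 genes, of which 75 were tested. Lrp1 stands in the uptake list and in the heme transport list and is counted in both. In GFP-positive cells 10 of the 75 were higher and 31 lower, and 34 were not called. Their median log2 fold change was -0.20, against -0.0058 for all tested genes. Of all tested genes, 26.1% were higher and 29.2% lower, and the counts of each list below stand against these same shares. With 1 to 24 tested genes in a list, nothing particular to a list is read from its counts. Fewer were higher without GFP-positive replicate 2 or GFP-positive replicate 3 (6 each), without replicate 1 in both groups (3) and without replicate 3 in both groups (2). The 21 genes that were not tested had at most 0.583 CPM in any library. Among them were the hepcidin genes Hamp and Hamp2. The mitochondrial ferritin Ftmt had 0 reads in every library.

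**Figure D4:**
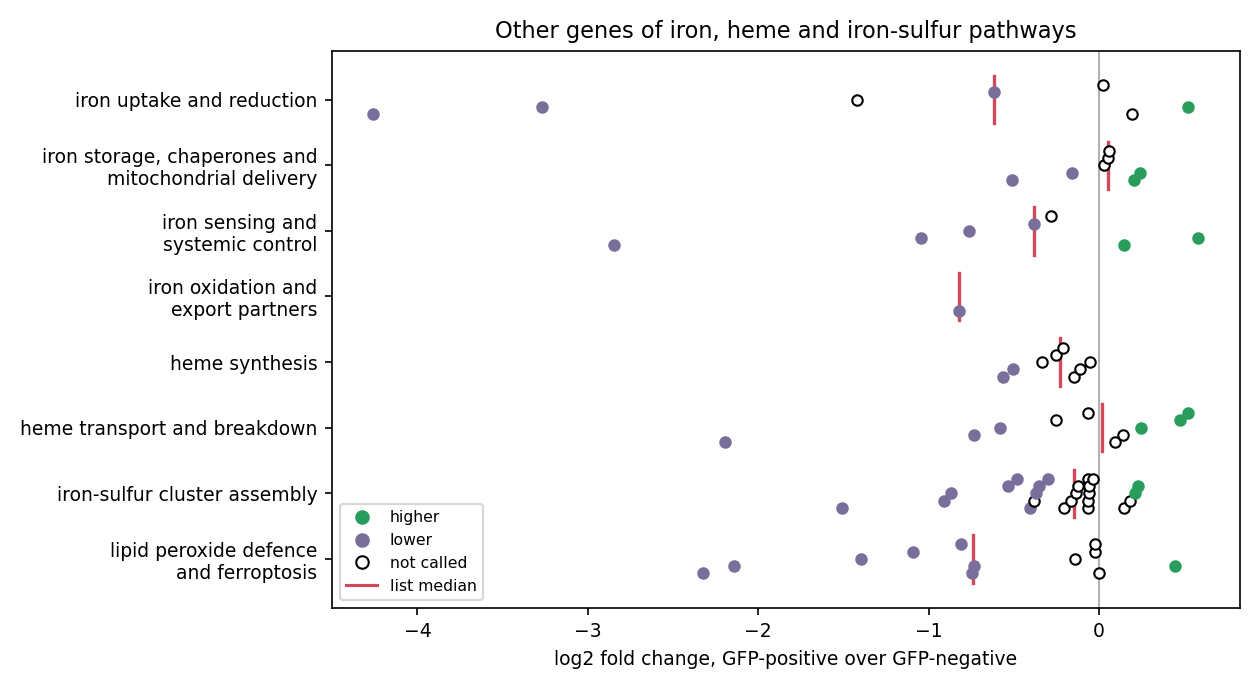
Log2 fold change, GFP-positive over GFP-negative, of the tested genes of the 8 lists, filled where called and open where not, with the list median as a line. Most called points lie left of 0, led by Cybrd1 at -4.26; the lists of storage genes and of heme transport have medians near 0.

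Uptake and reduction genes held the largest difference among these 75 genes. Of 7 tested, 3 were lower and 1 higher (median -0.61; with no low-count filter 5 were lower, without replicate 3 in both groups 2 were lower and 0 higher, without replicate 1 in both groups 0 higher, and without replicate 2 in both groups 2 higher). Cybrd1, a ferric reductase, stood at 7.60, 7.95 and 8.16 CPM in GFP-positive libraries, against 152, 91.1 and 211 CPM in GFP-negative replicates 1, 2 and 3, a 19.2-fold lower level in GFP-positive cells (log2 fold change -4.26, SE 0.29, edgeR adjusted p = 1.51e-05). The GFP-positive libraries were level and the GFP-negative ones spread widely, far above them. Of the endosomal and membrane metalloreductases, Steap2 was lower by a log2 fold change of -0.61 (edgeR adjusted p = 0.00570). Steap3 had -3.27 (0.00944), on few reads at 0.061 ± 0.082 CPM in GFP-positive libraries, against 0.669 ± 0.32 CPM in GFP-negative cells (SD, n = 3), and lost its call without replicate 3 in both groups (0.0693). The Steap3 value was -5.27 without GFP-positive replicate 2 and -5.00 without replicate 2 in both groups. Lrp1, a receptor for heme bound to hemopexin among many ligands, was the higher gene, by 0.52 (0.0107), and lost its call without replicate 1 (0.0554) and without replicate 3 (0.0749) in both groups.

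Storage and delivery genes were called in both directions. Of 7 tested, 2 were higher and 2 lower (median 0.050); with any library or number left out, RLE scaling or the replicate number as a block 1 was lower, and without replicate 1 or replicate 3 in both groups 0 were higher. Without GFP-positive replicate 2 or GFP-negative replicate 1, 1 was higher. Pcbp1, an RNA-binding protein that also delivers iron to ferritin, was higher by 0.21 (edgeR adjusted p = 0.00774), and Herc2, a ubiquitin ligase, by 0.24 (0.0197). Tmem14c, a mitochondrial porphyrin transporter, had -0.51 (4.33e-04). The other lower gene was Pcbp2, at -0.16 and near the threshold (0.0473), so the 2 Pcbp genes went in opposite directions. Pcbp1 lost its call without replicate 1 or replicate 3 in both groups (0.0549 and 0.109). Herc2 lost its call without GFP-positive replicate 2 (0.0655), without GFP-negative replicate 1 (0.0537) and without replicate 1 or replicate 3 in both groups (0.0803 and 0.0964).

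Sensing genes were lower in 4 and higher in 2 of 7 tested (median -0.38). Epas1, a hypoxia-inducible factor, stood at 1.503 ± 0.46 CPM in GFP-positive libraries, against 10.9 ± 1.89 CPM in GFP-negative cells (SD, n = 3), or a log2 fold change of -2.85 (edgeR, SE 0.25, adjusted p = 4.64e-05). Neo1, neogenin, a co-receptor in hepcidin control, was higher by 0.58 (2.73e-04). Fbxl5, the iron-sensing adaptor that marks Ireb2 protein for degradation, had 0.15 (0.0468) and missed the threshold in each of the 9 fits that left out a library or number (adjusted p up to 0.202), with the replicate number as a block (0.0692), with upper-quartile scaling (0.0772), with no filter (0.0825) and in DESeq2 (0.0578). App, the amyloid precursor protein, reported to help keep ferroportin at the surface, was the tested gene of the export list and had -0.82 (2.58e-04).

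Heme synthesis had 2 of 8 tested genes lower and 0 higher (median -0.23), and 5 lower without GFP-negative replicate 2 or without replicate 2 in both groups. Fech, the enzyme that inserts iron into heme, had a log2 fold change of -0.50 (edgeR adjusted p = 5.50e-04). Uros, an earlier enzyme of the pathway, had -0.33 and missed the threshold (0.0503), but passed with the replicate number as a block (0.0496) and without GFP-negative replicate 2 (0.00685). Heme transport and breakdown genes were called in both directions, 3 higher and 3 lower of 10 tested (median 0.015). Lrp1, also counted among the uptake genes, was 1 of the 3 higher. Without replicate 3 in both groups 0 were higher, and without replicate 1 in both groups 1 was. Blvrb, a biliverdin reductase, had -2.19 (5.88e-05), Abcg2, a porphyrin exporter among other roles, -0.58 (4.30e-04), and Slc48a1, a heme transporter of endosomes and lysosomes, -0.73 (0.00112). Abcb6, a porphyrin transporter, was higher by 0.47 (0.00442) and lost its call without replicate 3 in both groups (0.0634).

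Iron-sulfur cluster assembly had 9 of 24 tested genes lower and 2 higher (median -0.15). Of all tested genes, 29.2% were lower and 26.1% higher. Bola3 had a log2 fold change of -0.87 (edgeR adjusted p = 2.38e-04), Nfs1, the cysteine desulfurase that supplies sulfur, -0.53 (6.94e-04), and the mitochondrial chaperone Hspa9 -0.48 (0.00440), or -0.32 without replicate 1 in both groups. Ciao1, a factor of the cytosolic branch, was higher by 0.21 (0.0175), and lost its call without GFP-positive replicate 2 (0.0517), without GFP-positive replicate 3 (0.0691) and without replicate 1 or replicate 3 in both groups (0.0813 and 0.141). The count of lower genes was 5 without GFP-positive replicate 2, GFP-negative replicate 1 or GFP-negative replicate 3, 4 without replicate 3 and 3 without replicate 1 in both groups. The count of higher genes was 1 without GFP-positive replicate 1, GFP-positive replicate 2 or GFP-negative replicate 1, and 0 without GFP-positive replicate 3 and without replicate 1 or replicate 3 in both groups.

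Genes that limit or favour iron-driven lipid peroxidation, the process behind ferroptosis, were lower in GFP-positive cells in 7 of 12 tested with 1 higher and a median of -0.74; these counts were equal in all 9 fits that left out a library or number. Nfe2l2, a transcription factor of the antioxidant response that also drives ferritin genes, stood at 11.99 ± 0.74 CPM in GFP-positive libraries, against 59.9 ± 10.4 CPM in GFP-negative cells (SD, n = 3). Its log2 fold change was -2.32 (SE 0.13, edgeR adjusted p = 6.84e-06). Slc7a11, the cystine importer that feeds glutathione synthesis, stood at 9.37 ± 1.97 CPM in GFP-positive libraries, against 41.4 ± 5.85 CPM in GFP-negative cells (SD, n = 3), or a log2 fold change of -2.14 (SE 0.17, 2.78e-05). Lpcat3, which puts polyunsaturated fatty acids into phospholipids and so favours peroxidation, was lower too, at -1.09 (2.71e-05), while Txnrd1, thioredoxin reductase, was higher by 0.44 (2.47e-04). The astrocyte and neural stem cell marker sums moved in the same direction as the lower genes of these lists. Their part in these differences was not tested.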

How the data were processed

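Per the file headers, the deposited table holds raw read counts per gene for 6 libraries, with no normalization. Libraries were made with a stranded SMART-Seq kit, per the labels' protocols. The submitters' processing notes name the mm39 build, TopHat2 2.1.1 and featureCounts 2.0.0. Which annotation, strand setting and rule for multiply mapped reads were used is not given in the sources used here.

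The titles give the sorted fraction, with 3 libraries each. Counts were fitted with edgeR 4.0.16 (R 4.3.3): filterByExpr filter, TMM scaling, quasi-likelihood F test, Benjamini-Hochberg adjustment over all 14554 tested genes. Dividing a log2 fold change by the root of its F statistic gave its standard error. CPM values use the TMM-scaled library sizes. In counts simulated for this comparison (14554 genes), 75 of 100 genes changed by a log2 fold of 1 and 97 of 100 changed by 2 were recovered. In the same simulation 10 unchanged genes were called. It changed a far smaller share of genes than the 55.4% called in the real counts, so recovery there may differ. Counting intervals cover counting error only. Replicates were not repeats of a library within counting noise (ratio of chi-square to degrees of freedom 9.83 to 34.2).

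Titles share a number between a GFP-positive and a GFP-negative library. Around their group means, libraries with the same number deviated together, with correlations of 0.218, 0.355 and 0.159, all over 0.1. Of the 6 pairs with different numbers, GFP-positive 3 with GFP-negative 1 was also over that limit, at 0.128. The numbers may thus pair the samples, which the labels do not state. The main fit and its p-values left the numbers out, and a fit with the number as a block was an alternative. Other alternatives were RLE and upper-quartile scaling, 2 filters, DESeq2 1.42.0, limma voom 3.58.1 and each library or number left out.

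Named genes were all members, and in each list the 3 smallest p and the called gene of opposite direction with the smallest p. Pcbp2 was named outside this rule. Of the genes this rule names, 2 are not reported here. Members and lists were chosen with earlier results of these data known. Hairpins and exon lengths came from GENCODE M21 (GRCm38), near-identical copies from blastn 2.17.0, and no coordinates were carried to mm39.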

Additional observations from a re-analysis of the deposited data

How the results depend on the processing

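Of 155 values of the 9 tested members under alternative settings, 140 kept their direction and side of the threshold, 4 lost the call (Slc11a2 and Ftl1), 3 gained it (Ireb2) and 8 turned sign (Tfrc). Tfrc was 0.0049 with RLE scaling, 0.0096 with no filter, 0.0049 in DESeq2 and 0.0039 with the median of all tested genes centred at 0, a setting chosen after seeing the data, and between -0.072 and 0.069 with a library or number left out; no Tfrc value passed the threshold. Trf, Fth1, Cp, Heph and Aco1 passed it in every alternative run. With the replicate block, 3918 genes were higher and 4422 lower, and among the members 1 was higher and 6 lower. Of the genes named by the rule, the block changed the calls of Fbxl5 and Uros and no other. Leaving out a library or number gave 2454 to 4048 genes higher, 0 to 2 members higher and 2 to 10 genes of the other iron lists higher. The log2 ratios ranged from 1.33 to 1.64 (Tfrc to Fth1), -1.36 to -1.15 (Fth1 to Ftl1) and -0.56 to -0.39 (Aco1 to Ireb2); within same-numbered pairs the exact sign-flip p was 0.25, the smallest that 3 pairs allow. With no filter, 5 uptake genes were lower. Of the 475 values of Pdgfra and the other iron genes named by the rule, 443 kept their call and direction. The call was lost in 27 and gained in 5, and 0 turned sign. Summing the 7 other ferritin entries, which hold 0 reads, into their chains could change nothing. The Fth1 and Ftl1 values from that setting are nevertheless among the 140 counted as kept. Depth limits Slc40a1, and less so Heph and Steap3. Where calls changed, the cause was not tested.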

Other observations

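GFP-negative replicate 2 stood apart from the other GFP-negative libraries in several iron genes, which were chosen after their values were seen. It had the lowest Fth1 (282 CPM, against 386 and 371 CPM in replicates 1 and 3), the lowest Cybrd1 (91.1 CPM, against 152 and 211 CPM) and the highest Heph (3.54 CPM, against 1.61 and 1.59 CPM). The astrocyte marker Aldh1l1 was highest in replicate 2 of each fraction, at 1.20, 11.02 and 1.496 CPM in GFP-positive libraries, against 15.2, 121 and 26.9 CPM in GFP-negative replicates 1, 2 and 3. The Fth1 to Ftl1 ratio of that GFP-negative library, 0.506, lay nearest the GFP-positive range of 0.255 to 0.262. The summed precursor markers of this library were 2635 CPM, against 2530 and 2307 CPM in replicates 1 and 3, and its summed astrocyte markers were 4040 CPM, between the others at 3762 and 4671 CPM. Without it, the Fth1 log2 fold change was -1.62. The part of cell composition in these values was not tested.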
